A study of Mus musculus with 12 samples.

Results

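The genes described here are the peroxisome proliferator-activated receptors (PPARs), their retinoid X receptor (RXR) partners, the PGC-1 coactivators, a corepressor and the liver transcription factor CREB-H. The 10 members were chosen by gene symbol: Ppara, Ppard, Pparg, Rxra, Rxrb, Rxrg, Ppargc1a, Ppargc1b, Ncor1 and Creb3l3. Of these, 9 were measured among the 22180 genes tested, each by exactly 1 probe set that carries its symbol alone. Ncor1, which encodes a corepressor of nuclear receptors, had no probe set in the array annotation used here, and it is not analysed here. Ppard also had a probe set shared with another symbol, which was not used.

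Livers of male C57BL/6 mice were profiled on arrays, 1 mouse per array, with 3 mice in each of 4 groups. The groups were AHNAK KO mice on a high-fat diet (KO HFD), wild-type mice on the same diet (WT HFD), AHNAK KO mice on regular chow (KO chow) and wild-type mice on chow (WT chow). The high-fat diet supplied 60% fat and was given for 8 weeks to weight-matched groups. Ahnak encodes a very large scaffold protein. The labels do not state how the knockout was made, which part of the gene it removes, the age of the mice or the hour at which livers were taken.

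PPARs are nuclear receptors that are switched on by fatty acids and their derivatives and that bind DNA as a pair with an RXR. In the liver, PPARα drives the oxidation of fatty acids and the fasting response, whereas PPARγ is best known for fat storage in adipocytes and is raised in fatty livers. PGC-1α, encoded by Ppargc1a, is a coactivator that lacks DNA binding of its own and is induced by fasting through cAMP signalling. CREB-H, encoded by Creb3l3, works with PPARα on genes of triglyceride metabolism and on Fgf21.

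All values are log2 signals, so a difference of 1 is a doubling. A gene was called changed at a limma adjusted p under 0.05, with adjustment over all 22180 genes within a comparison. Values after ± are the SD of 3 mice for levels and the standard error (SE) of the fit for differences. Signals of different genes come from different probes and were not set against each other.

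Among the members, 2 were called on HFD, in opposite directions. Pparg was 3.42-fold lower and Ppargc1a 2.28-fold higher in KO HFD than in WT HFD livers (log2 differences -1.77 ± 0.49 and 1.19 ± 0.18, SE, n = 3 mice per group in a limma fit over 12 arrays), and no other measured member passed the test. The Pparg call was lost without any 1 of the 6 HFD arrays (adjusted p 0.0556 to 0.128), whereas the Ppargc1a call held whichever array was left out. The sequences just upstream of annotated starts of both genes are shown because these are the members that differed, and that of Creb3l3 because its HFD arrays did not overlap between genotypes. They cover 250 bases of the sense strand up to the start, from RefSeq on GRCm38.p6, and the array does not separate transcripts from different starts. The Ppargc1a and Pparg sequences lie inside the annotated spans of these genes, and the Pparg start is number 3 of those annotated along the gene. Capitals mark the cAMP response core TGACG, which reads CGTCA on the opposite strand.
Ppargc1a, minus strand, chr5:51567726-51567975: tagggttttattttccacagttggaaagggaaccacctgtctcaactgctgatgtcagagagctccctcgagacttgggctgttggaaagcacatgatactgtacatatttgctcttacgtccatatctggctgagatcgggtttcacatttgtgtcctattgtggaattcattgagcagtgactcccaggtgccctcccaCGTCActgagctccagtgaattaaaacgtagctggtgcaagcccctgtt
Pparg, plus strand, chr6:115421816-115422065: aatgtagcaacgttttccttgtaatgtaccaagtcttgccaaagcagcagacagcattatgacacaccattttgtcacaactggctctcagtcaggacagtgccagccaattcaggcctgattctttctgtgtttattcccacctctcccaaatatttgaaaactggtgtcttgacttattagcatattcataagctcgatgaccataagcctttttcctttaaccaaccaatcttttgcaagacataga
Creb3l3, minus strand, chr10:81098873-81099122: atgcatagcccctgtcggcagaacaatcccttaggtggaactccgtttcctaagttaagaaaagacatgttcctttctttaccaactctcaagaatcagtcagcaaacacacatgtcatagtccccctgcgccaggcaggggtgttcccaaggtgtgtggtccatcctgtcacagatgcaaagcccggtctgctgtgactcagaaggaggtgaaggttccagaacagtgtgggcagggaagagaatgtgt

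In the Ppargc1a sequence the core lay on the opposite strand, from base -49 to base -45 counted from the start. The letters TGACG occurred on either strand in 17.8% of 32851 RefSeq promoters of this length. Among the members it was also upstream of Ppara (-222 to -218), of 1 start of Rxrb (-119 to -115) and of the second annotated start of Creb3l3 (-239 to -235), which is not the one printed. The full cAMP element TGACGTCA, which contains that core and was found in 1.55% of promoters, matched none of the 16 promoters searched, which include 2 of Ncor1 and none of Ppargc1b. The nuclear receptor hexamer AGGTCA, present in 14.0% of promoters, occurred upstream of the other 2 annotated starts of Pparg, from base -28 to -23 and from -9 to -4. It was also upstream of 1 start each of Rxra (-87 to -82 and -48 to -43), Rxrg (-88 to -83) and Creb3l3 (-202 to -197, the second start). It was not found in the sequences printed above. The direct repeat AGGTCANAGGTCA, a perfect PPAR element made of 2 such hexamers 1 base apart, was in 0.0335% of promoters and in none of the 16. The E-box CACGTG, which clock proteins bind, was in 6.02% of promoters and in none of the 16. These matches describe letters only, since no binding was measured.

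The 3 WT HFD livers stood apart from the other 9 on the first principal component of all genes, which held 32.2% of the variance (30 to 32.3 against -18.5 to -3.95). Each comparison that uses WT HFD rests on those 3 arrays. The 6 hepatocyte markers were at 13.15 to 14.16 on every array, and 1 of them, the urea cycle gene Cps1, was higher in KO on HFD by 0.36 ± 0.07 (limma adjusted p = 0.00882) and for the mean of both diets by 0.26 ± 0.05 (0.0134), while the other 5 did not pass on HFD. Genes of other organs, 13 in number and chosen as silent in liver, were at 3.12 to 6.13. Ahnak had 6.46, 6.52 and 6.62 in KO HFD, 7.26, 7.06 and 6.74 in WT HFD, 6.38, 6.74 and 6.66 in KO chow and 6.5, 6.83 and 6.58 in WT chow. It was lower by 0.48 ± 0.14 in KO on HFD (limma adjusted p = 0.0483) and differed by -0.04 ± 0.14 on chow (0.971). Because the deleted part is not given, this probe set does not check the genotype labels. Nothing in the labels gives a batch, and precision is limited by having 3 arrays per group.

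**Figure D1:**
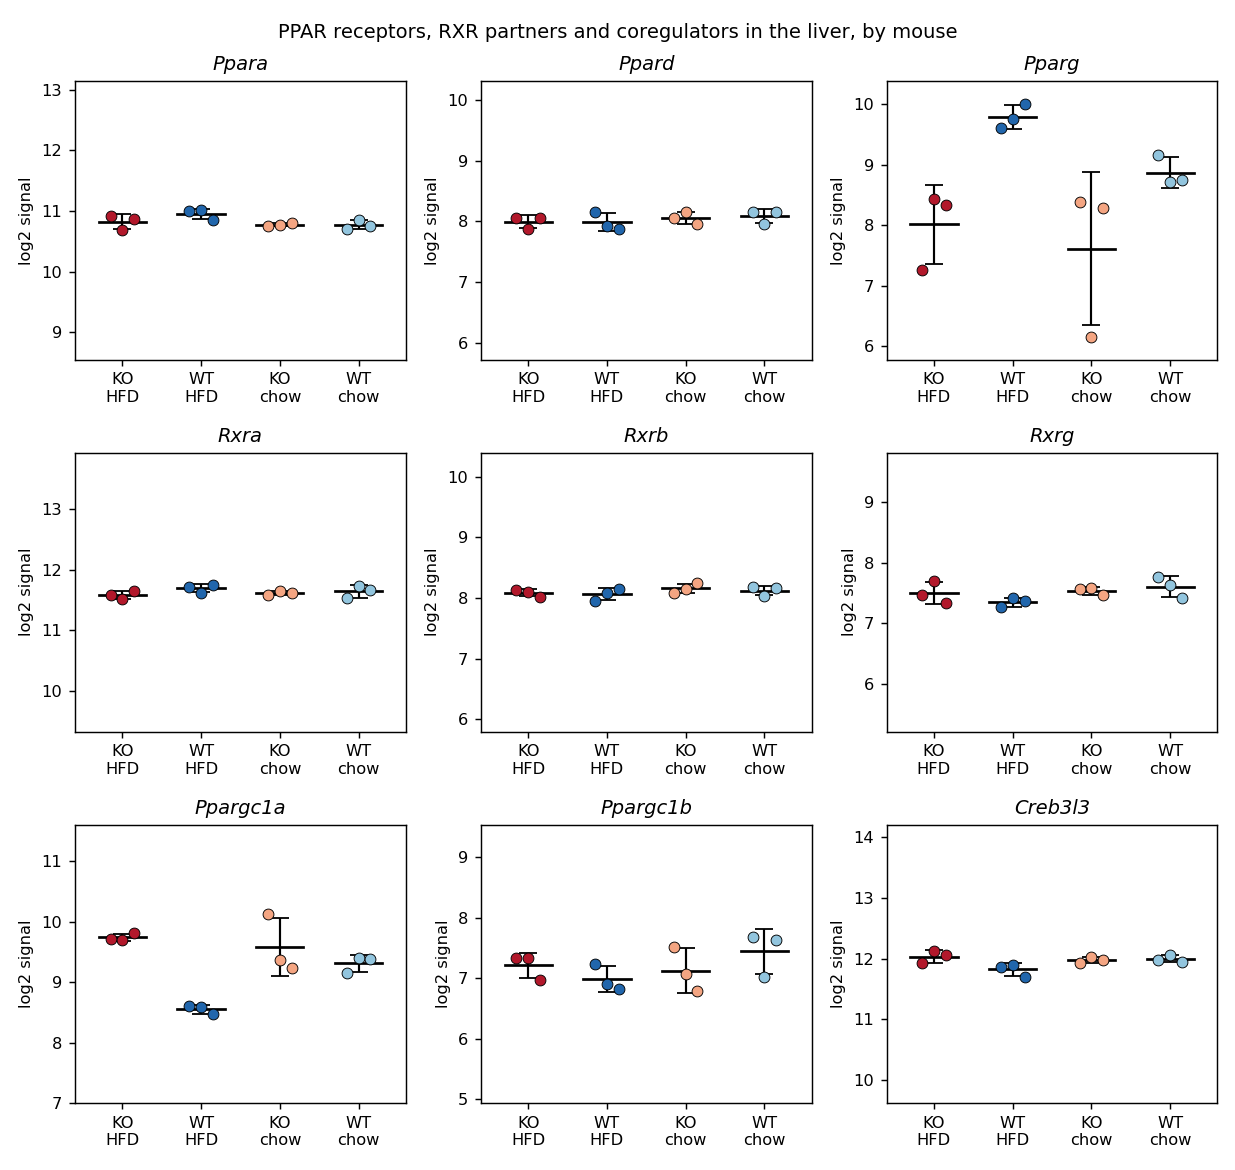
Log2 signal of the 9 measured members in each mouse (points), with the group mean and SD (n = 3 mice), for KO HFD, WT HFD, KO chow and WT chow. The vertical axis has the same span in every panel, so spreads can be compared: Pparg covered 3.85 and Ppargc1a 1.66 log2 units over the 12 mice, against 0.23 for Rxra.

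Among the PPARs, Ppara was nearly level. Ppara, the fatty acid oxidation receptor, is on chromosome 15 (85734910 to 85806851). It had 10.92, 10.68 and 10.87 in KO HFD, 11, 11.01 and 10.86 in WT HFD, 10.75, 10.77 and 10.8 in KO chow and 10.71, 10.85 and 10.76 in WT chow. The lowest and highest of the 12 mice were 0.33 apart, and the WT HFD mice lay above all chow mice of either genotype while overlapping with KO HFD. The KO minus WT difference was -0.14 ± 0.09 on HFD (95% interval -0.32 to 0.05, limma adjusted p = 0.386) and 0.00 ± 0.09 on chow (-0.19 to 0.19). HFD minus chow was 0.18 ± 0.09 in WT (0.257). Ppard, the broadly expressed PPARδ on chromosome 17 (28232754 to 28301469), ran from 7.87 to 8.16 over all mice and overlapped between every pair of groups. Its KO minus WT difference was 0.01 ± 0.10 on HFD (95% interval -0.21 to 0.24) and -0.03 ± 0.10 on chow (-0.26 to 0.19).

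Pparg, on chromosome 6 (115360879 to 115490404), was the most variable member. It had 7.27, 8.44 and 8.33 in KO HFD, against 9.6, 9.75 and 10 in WT HFD. On chow it had 8.39, 6.16 and 8.29 in KO, against 9.16, 8.71 and 8.74 in WT. On each diet every KO mouse lay below every WT mouse. The order of the group means was WT HFD (9.79 ± 0.20), WT chow (8.87 ± 0.25), KO HFD (8.01 ± 0.64) and KO chow (7.61 ± 1.26), and of neighbours in this order only the 2 KO groups overlapped.

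Pparg was 3.42-fold lower in KO than in WT on HFD, a log2 difference of -1.77 ± 0.49 (95% interval -2.83 to -0.71, limma adjusted p = 0.037). Among all genes, 0.4% had a larger difference in this comparison. Besides the leave-out fits given above, the call was lost with trend and robust settings (0.0883) and with array weights (0.0571). On chow the difference was -1.26 ± 0.49 (95% interval -2.32 to -0.20, adjusted p = 0.63), and it was -0.53 without the mouse at 6.16. Averaged over both diets Pparg was lower by 1.51 ± 0.34 in KO (adjusted p = 0.0273), a call lost without WT chow 1 or 3, KO HFD 1 or any WT HFD mouse (0.0516 to 0.0693).

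The diet differences of Pparg did not pass the test. HFD minus chow was 0.92 ± 0.49 in WT (limma adjusted p = 0.322), although the arrays did not overlap, and it passed when the fit held only those 6 arrays (0.0192). In KO it was 0.40 ± 0.49 (0.876) and turned to -0.33 without the KO chow mouse at 6.16. The interaction, which asks whether the genotype difference depends on diet, was -0.51 ± 0.69 (95% interval -2.01 to 0.99, adjusted p = 0.773). It ranged from -1.24 without the KO chow mouse at 6.16 to -0.13 without KO chow 1 (adjusted p 0.148 to 0.955), and it was -0.14 without KO HFD 1 and -0.18 without KO chow 3. The spread of Pparg within groups, a pooled SD of 0.726, exceeded that of 99.9% of genes, and it was largest in KO chow (SD 1.26) and KO HFD (0.64).

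The RXRs, which pair with PPARs and several other receptors, passed no test. Rxra on chromosome 2 (27676445 to 27763319) ran from 11.51 to 11.75, Rxrb on chromosome 17 (34031812 to 34038403) from 7.95 to 8.24 and Rxrg on chromosome 1 (167598362 to 167639623) from 7.26 to 7.76. Their group ranges overlapped between KO and WT on either diet. The KO minus WT differences on HFD were -0.11 ± 0.08 for Rxra (95% interval -0.30 to 0.07), 0.02 ± 0.09 for Rxrb (-0.16 to 0.21) and 0.15 ± 0.11 for Rxrg (-0.10 to 0.40). Rxrg gave -0.25 ± 0.11 for HFD minus chow in WT, with an unadjusted p = 0.0459 and a limma adjusted p = 0.232. Of 13 other receptors that pair with RXR, 12 were measured, and 0 passed in any of the 6 comparisons. The nearest to the threshold was Nr4a1, an early-response receptor, at -2.38 ± 0.67 for HFD minus chow in WT (0.0531).

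Ppargc1a gave the clearest difference of any member. On chromosome 5 (51454249 to 52115853), it had 9.72, 9.7 and 9.81 in KO HFD, against 8.6, 8.59 and 8.47 in WT HFD. On chow it had 10.13, 9.37 and 9.24 in KO, against 9.15, 9.4 and 9.39 in WT. WT HFD was the low group: its 3 mice lay below all 9 others. Of the other 3 groups, neighbours overlapped in the order of their means, KO HFD (9.74 ± 0.06), KO chow (9.58 ± 0.48) and WT chow (9.31 ± 0.14). Every KO HFD mouse lay above every WT chow mouse.

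On HFD, Ppargc1a was 2.28-fold higher in KO than in WT, a log2 difference of 1.19 ± 0.18 (95% interval 0.79 to 1.58, limma adjusted p = 0.0015). Leaving out 1 array gave differences of 1.15 to 1.21. On chow the difference was 0.27 ± 0.18 (95% interval -0.13 to 0.66, adjusted p = 0.81), and it was -0.01 without the KO chow mouse at 10.13. Averaged over diets it was higher in KO by 0.73 ± 0.13 (adjusted p = 0.00757). In WT mice Ppargc1a fell by 0.76 ± 0.18 on HFD (0.0261), a call lost without any 1 of 5 arrays (WT HFD 1, 2 or 3, or WT chow 2 or 3, 0.0657 to 0.0886). In KO mice HFD minus chow was 0.16 ± 0.18 (95% interval -0.23 to 0.56, adjusted p = 0.865).

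The interaction for Ppargc1a was 0.92 ± 0.26 (95% interval 0.36 to 1.48), with an unadjusted p = 0.00365 and a limma adjusted p = 0.0759. It passed without the KO chow mouse at 10.13 (1.195, adjusted p = 0.00135). It also passed with trend and robust settings (0.0476) and over genes above the median signal (0.0343). A difference in response between diets is therefore not called for this gene in the fit used throughout.

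Ppargc1b, the related coactivator PGC-1β on chromosome 18 (61291445 to 61400756), passed no test. It had 7.33, 7.34 and 6.97 in KO HFD, against 7.23, 6.9 and 6.82 in WT HFD. On chow it had 7.52, 7.07 and 6.79 in KO, against 7.68, 7.02 and 7.63 in WT. All neighbouring groups overlapped. The KO minus WT difference was 0.23 ± 0.21 on HFD (95% interval -0.23 to 0.69) and -0.32 ± 0.21 on chow (-0.78 to 0.14), and HFD minus chow in WT was -0.46 ± 0.21 (limma adjusted p = 0.243).

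Creb3l3, on chromosome 10 (81084329 to 81098872), had 11.92, 12.12 and 12.06 in KO HFD, against 11.86, 11.9 and 11.7 in WT HFD. On chow it had 11.92, 12.02 and 11.97 in KO, against 11.98, 12.06 and 11.95 in WT. As for Ppargc1a, WT HFD was the low group and lay below all 9 other mice, but by a small step. The KO minus WT difference on HFD was 0.22 ± 0.09 (95% interval 0.03 to 0.40, unadjusted p = 0.0272, limma adjusted p = 0.144), and it passed with trend and robust settings (0.0463). On chow it was -0.03 ± 0.09, and HFD minus chow in WT was -0.18 ± 0.09 (0.268).

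Of the 9 measured members, 1 was higher and 1 lower in KO on HFD, where 10.5% of all genes were called (3.89% higher and 6.62% lower). At an unadjusted p under 0.05 there were 3 (Pparg, Ppargc1a and Creb3l3), against 23.8% of all genes. On chow 0 members passed by limma, against 0.00902% of all genes, and 1 (Pparg) had an unadjusted p under 0.05, against 7.02%. For the mean of both diets 1 was higher and 1 lower, where 4.81% of all genes were called (1.45% higher and 3.36% lower, and 18% at an unadjusted p under 0.05).

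For HFD against chow in WT, 1 member was lower, where 6.96% of all genes were called (4.02% higher and 2.94% lower), and 2 had an unadjusted p under 0.05 (Ppargc1a and Rxrg), against 20.6%. In KO 0 members passed by limma, where 0.243% of all genes did (0.0857% higher and 0.158% lower), and 0 had an unadjusted p under 0.05, against 8.51%. The interaction called 0 members by limma, where 3.53% of all genes were called (1.43% higher and 2.1% lower), and 1 (Ppargc1a) had an unadjusted p under 0.05, against 17.3%. Arrays did not overlap between genotypes for 3 members on HFD, against 28.6% of all genes, and for Pparg on chow, against 13.2%. They did not overlap between diets in WT for 4 members (Ppara, Pparg, Ppargc1a and Creb3l3), against 26.4%. These shares over 9 genes are a description and single out no property of the members.

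**Figure D2:**
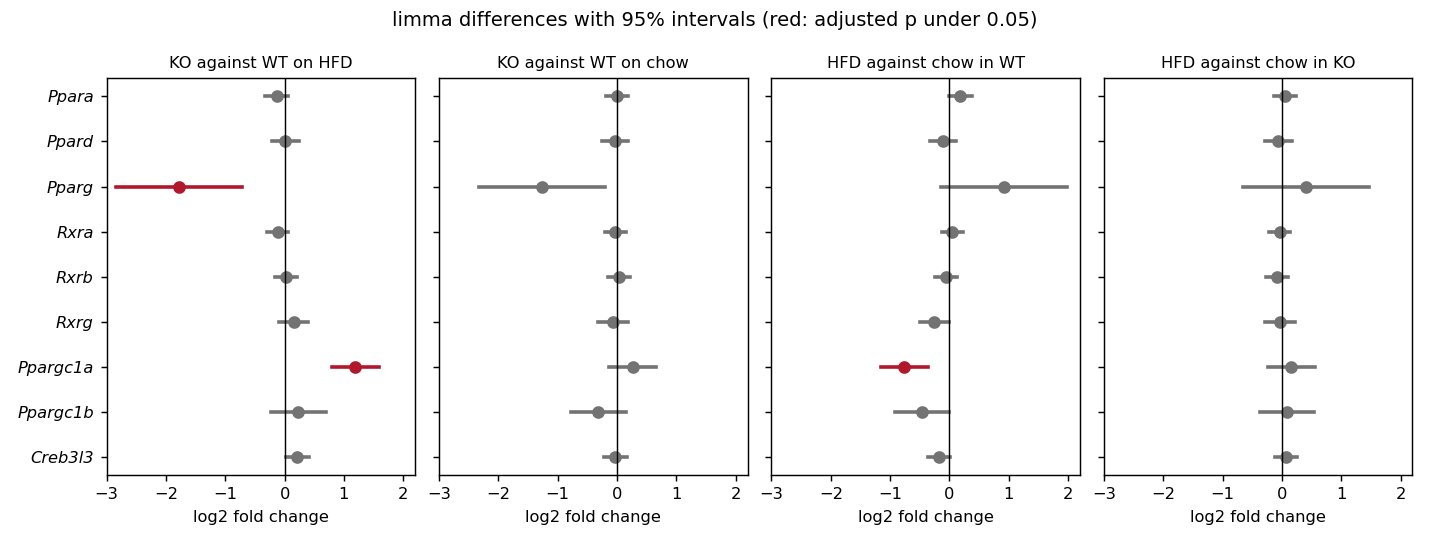
Log2 differences of the 9 measured members from the limma fit, with 95% intervals, for KO minus WT on HFD, KO minus WT on chow, HFD minus chow in WT and HFD minus chow in KO; red marks an adjusted p under 0.05. Pparg (-1.77) and Ppargc1a (1.19) passed for KO against WT on HFD and Ppargc1a (-0.76) for HFD against chow in WT.

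Genes that these regulators are known to control were then described from lists of textbook targets. The lists were chosen with earlier results of these data known, so their counts are a description and not independent support. The comparison of KO with WT on HFD and that of HFD with chow in WT share the 3 WT HFD arrays, so opposite signs in them are not independent, and the values are given side by side. Because the livers are bulk samples, fewer cells of a type and less RNA per cell cannot be told apart.

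Of 33 PPARα targets of fatty acid oxidation, 27 were measured. On HFD 12 were higher in KO than in WT, 0 were lower and 15 did not pass, with a median difference of 0.26 against 0.00 over all genes. Of all genes 3.89% were higher and 6.62% lower. Ppara itself did not pass in that comparison. Of the 12 calls, 7 held whichever array was left out. Centring each array on its median, or fitting only the 6 HFD arrays, left 7 calls. Cyp4a31, a fatty acid hydroxylase gene, had 13.22, 12.68 and 13.09 in KO HFD, against 11.07, 11.37 and 11.11 in WT HFD, and the genotypes were fully apart. It was higher in KO by 1.81 ± 0.13 (limma adjusted p = 8.35e-06).

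Fgf21, a hormone of the fasted liver and a target of both PPARα and CREB-H, had 8.36, 8.22 and 9.62 in KO HFD, against 6.61, 6.93 and 6.81 in WT HFD. Acot1, an acyl-CoA thioesterase gene, had 9.99, 9.79 and 10.57 in KO HFD, against 9.04, 9.22 and 8.92 in WT HFD. For both genes every KO mouse was above every WT mouse. Acot1 was higher by 1.06 ± 0.18 in KO (limma adjusted p = 0.00308). Hadhb, of mitochondrial β-oxidation, was higher by 0.67 ± 0.14 (0.00989). Vnn1, a pantetheinase gene often used as a PPARα marker, was on the other side at -0.26 ± 0.11 and did not pass (0.156). Vnn1 was -0.47 ± 0.11 on chow (0.277) and was called lower for the mean of both diets (-0.36 ± 0.07, 0.0162), where 4 PPARα targets were higher (Ehhadh, Cpt1a, Cyp4a31 and Fgf21), 1 was lower and 22 did not pass, against 1.45% of all genes higher and 3.36% lower. The call for Fgf21 was lost without any 1 of 4 arrays (up to 0.0564).

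In WT mice 12 of these 27 PPARα targets were lower on HFD than on chow, 0 were higher and 15 did not pass, with a median of -0.28, where 2.94% of all genes were lower and 4.02% higher. Without WT HFD 3 the number was 7. Acot1 fell by 1.90 ± 0.18 (limma adjusted p = 0.000113). Pdk4, which restrains glucose oxidation, fell by 1.77 ± 0.23 (0.000943). Pdk4 had 9.82, 9.19 and 10.09 in KO HFD, 9.24, 9.06 and 9.0 in WT HFD, 10.43, 10.73 and 11.3 in KO chow and 10.97, 10.7 and 10.94 in WT chow. Its HFD levels overlapped between genotypes and lay below chow in either genotype. None of the 27 was called for KO against WT on chow or for HFD against chow in KO, with medians of -0.09 and 0.08. For KO minus WT on chow Acaa1b stood at -0.54 ± 0.09 (limma adjusted p = 0.0903) and Acot2 at -0.57 ± 0.19 (0.56). Cpt1a was on the other side at 0.14 ± 0.08 (0.776). On HFD the KO minus WT difference of Acaa1b was 0.23 ± 0.09 and did not pass (0.133). The interaction takes in the chow difference as well as the HFD difference. The interaction called 9 as higher and 0 as lower (1.43% and 2.1% of all genes), with Ehhadh (1.35, adjusted p = 0.000244) and Cyp4a31 (1.82, 0.000271) at the smallest p, and 5 of the 9 calls held whichever array was left out.

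Of 13 PPARγ targets of lipid storage, 12 were measured. On HFD 7 were lower in KO than in WT, 0 were higher and 5 did not pass, with a median difference of -0.77, where 6.62% of all genes were lower and 3.89% higher. Of the 7 calls, 6 held whichever array was left out, the exception being Lpl (-0.90, limma adjusted p = 0.0411). Cd36, a fatty acid transporter gene, had 9.94, 9.69 and 9.75 in KO HFD, against 11.94, 12.1 and 12.06 in WT HFD. Vldlr, a receptor for triglyceride-rich particles, had 5.66, 5.0 and 5.57 in KO HFD, within the range of the silent genes, against 7.11, 7.11 and 7.32 in WT HFD. Cidea, a lipid droplet gene, had 4.84, 5.08 and 4.97 in KO HFD, within the range of the silent genes, against 6.44, 8.06 and 8.66 in WT HFD. Each of these sets was fully apart between genotypes.

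Vldlr fell by 1.77 ± 0.16 in KO on HFD (limma adjusted p = 5.99e-05) and Mogat1, an acyltransferase of triglyceride synthesis, by 1.58 ± 0.20 (0.000512). Among those that did not pass was Cidec, another droplet gene, at 1.16 ± 0.40 on the other side (0.092), with 10.94, 11.8 and 12.0 in KO HFD, against 9.88, 10.7 and 10.67 in WT HFD. Fabp4, a fatty acid binding protein of adipocytes and macrophages, stood at 0.74 ± 0.34 (0.21). The list's name thus covers genes with differences of either sign.

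In WT mice 5 of the 12 PPARγ targets were higher on HFD than on chow and 0 were lower, with a median of 0.70, where 4.02% of all genes were higher. These were Cidea (2.83 ± 0.40), Cd36 (1.68 ± 0.21), Mogat1 (1.64 ± 0.20), Plin4 (1.47 ± 0.19) and Vldlr (0.87 ± 0.16), and each call held whichever array was left out. The mean of Cidea in WT chow was within the range of the silent genes. In KO mice 1 was called: Vldlr fell by 1.05 ± 0.16 on HFD (limma adjusted p = 0.0212), a call lost without any KO chow mouse (highest adjusted p 0.113). The KO HFD levels of Vldlr were within the range of the silent genes. Fabp4 stood on the other side in KO at 1.83 ± 0.34 and did not pass (limma adjusted p = 0.0599). The list median for HFD minus chow in KO was -0.09. On chow 0 of the 12 were called between genotypes by limma and the median was 0.08. Pparg on chow stood at -1.26 and did not pass either (limma adjusted p = 0.63). It was -0.53 without the KO chow mouse at 6.16. For the mean of both diets 5 were lower in KO (Cd36, Vldlr, Mogat1, Plin4 and Cidea), 0 were higher and 7 did not pass, against 3.36% of all genes lower. The interaction called 5 as lower and 0 as higher (2.1% and 1.43% of all genes), with Vldlr (-1.92, adjusted p = 0.000982) and Cd36 (-2.34, 0.0013) at the smallest p, and 3 of the 5 calls held whichever array was left out.

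The mean of the 12 PPARγ targets showed the same grouping in each mouse. It was 7.8, 7.65 and 7.77 in KO HFD, 8.37, 8.58 and 8.75 in WT HFD, 7.75, 7.69 and 7.74 in KO chow and 7.85, 7.61 and 7.53 in WT chow. Only WT HFD stood clear of the other groups. The KO chow mouse with Pparg at 6.16 had a target mean of 7.69, close to those of its group mates (7.75 and 7.74). Whether target levels follow Pparg was not tested. The mean of the 27 PPARα targets was 11.58, 11.51 and 11.76 in KO HFD, 11.19, 11.29 and 11.22 in WT HFD, 11.54, 11.6 and 11.7 in KO chow and 11.71, 11.78 and 11.69 in WT chow. Here WT HFD was the low group.

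**Figure D3:**
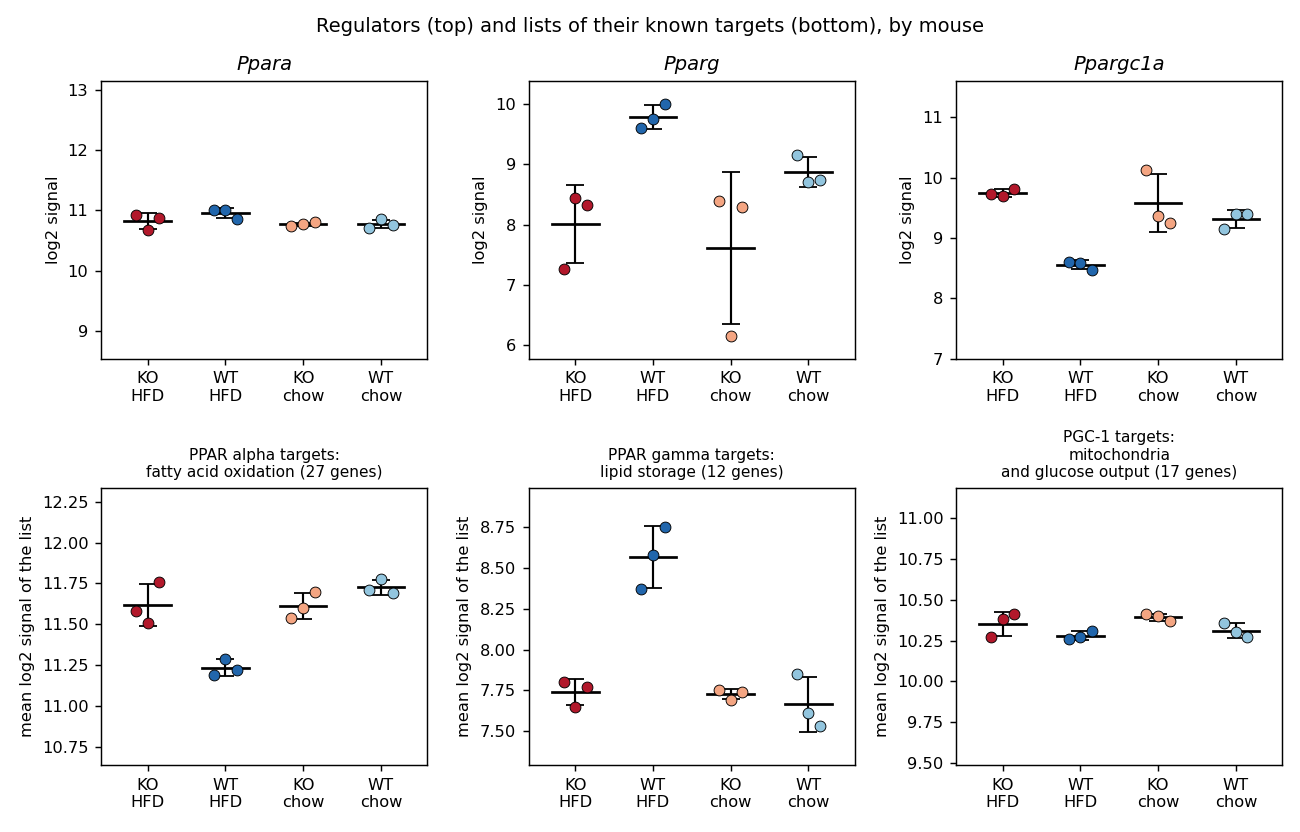
Top row, log2 signal of Ppara, Pparg and Ppargc1a in each mouse with the group mean and SD (n = 3); bottom row, the mean log2 signal of the 27 PPARα, 12 PPARγ and 17 PGC-1 target genes in the same mice, on a narrower scale. WT HFD was the low group for the PPARα targets (11.19 to 11.29) and for Ppargc1a and the high group for the PPARγ targets (8.37 to 8.75) and for Pparg, while Ppara stayed within 0.33 over all mice.

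**Figure D4:**
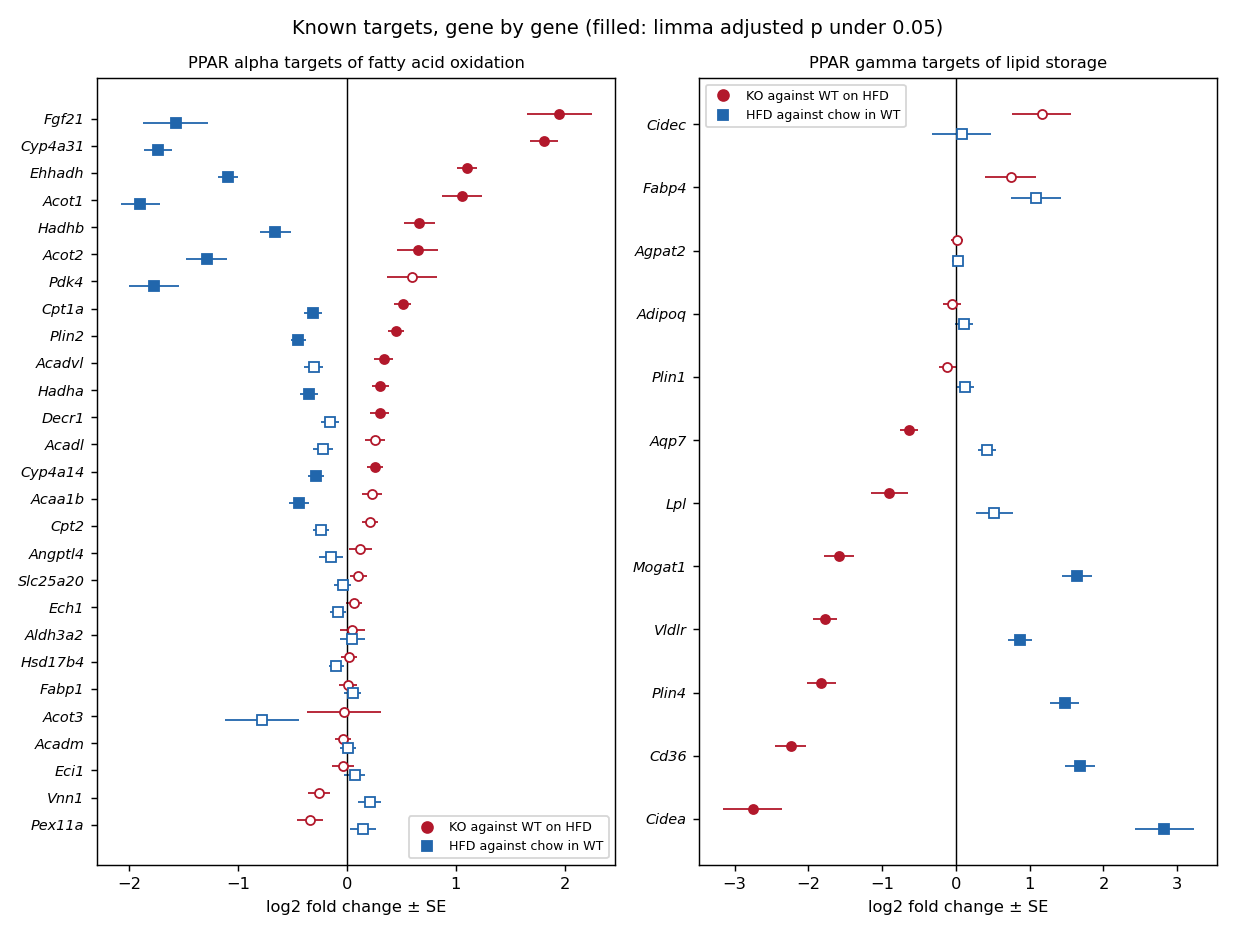
Log2 difference and SE of each measured PPARα target (left) and PPARγ target (right) for KO against WT on HFD (red circles) and HFD against chow in WT (blue squares); filled symbols have a limma adjusted p under 0.05. The 12 filled red circles on the left lie above 0 and the 7 on the right lie below 0; the comparisons share the 3 WT HFD arrays.

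For the 17 PGC-1 targets of mitochondria and glucose output, 2 on HFD were higher in KO than in WT, 0 were lower and 15 did not pass, with a median of 0.06, where 3.89% of all genes were called higher. Idh3a, of the citric acid cycle, was higher by 0.55 ± 0.15 (limma adjusted p = 0.0401) and G6pc, the last step of glucose output, by 0.37 ± 0.10 (0.0365). Neither call held in every leave-out fit, the highest adjusted p being 0.137 for Idh3a and 0.112 for G6pc. On chow Idh3a differed by 0.65 ± 0.15 (0.309), with an interaction of -0.11 ± 0.22 (0.862), and it was higher in KO for the mean of both diets by 0.60 ± 0.11 (0.0085). Pck1, the gluconeogenic enzyme gene most used as a readout of PGC-1α, stood at 0.25 ± 0.075 (0.0532). In WT mice G6pc fell by 0.47 ± 0.10 on HFD (0.0168), a call lost without WT HFD 2 or 3 or WT chow 1 or 3 (up to 0.0727), and 16 did not pass. The list mean was 10.27, 10.38 and 10.41 in KO HFD, against 10.26, 10.27 and 10.31 in WT HFD, so the ranges overlapped.

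Of 9 CREB-H targets, 2 were higher and 1 lower in KO on HFD and 6 did not pass, where 3.89% of all genes were higher and 6.62% lower. Fgf21 and Apoa4, an apolipoprotein gene, were higher, Apoa4 by 0.42 ± 0.11 (limma adjusted p = 0.0345, up to 0.101 with 1 HFD array left out). Cidea was the lower one. Fgf21, Cidea and Cidec also stand in the PPAR lists, so these counts are not separate from those above.

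Of 19 other coregulators of nuclear receptors, 18 were measured and 2 were lower in KO on HFD, 0 were higher and 16 did not pass. That is 11.1% lower, against 6.62% of all genes. Lpin1, a phosphatidate phosphatase that also acts with PGC-1α and PPARα in liver, had 9.52, 8.83 and 11.18 in KO HFD, 12.23, 12.3 and 12.28 in WT HFD, 10.49, 10.66 and 11.31 in KO chow and 9.06, 9.99 and 9.65 in WT chow. WT HFD was the high group, with 0.03 SD among its mice against 1.21 in KO HFD. Lpin1 fell by 2.43 ± 0.46 in KO on HFD (limma adjusted p = 0.00532), rose by 2.70 ± 0.46 on HFD in WT (0.00443) and gave an interaction of -3.68 (0.0105). Hdac3, the deacetylase that works with NCOR1, had 10.72, 10.77 and 10.61 in KO HFD, against 11.08, 11.04 and 11.05 in WT HFD. It was lower by 0.36 ± 0.08 in KO (0.0131, and not called when only the HFD arrays were fitted).

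Some markers of other cell types and of the clock differed in the same comparison, in which 6.62% of all genes were lower and 3.89% higher in KO. Of 12 macrophage markers, 3 were lower in KO on HFD (Gpnmb, Trem2 and Ccr2) and 9 did not pass. Clec4f stood on the other side at 0.11 ± 0.13 (limma adjusted p = 0.666). The mean of the macrophage list was 7.93 to 8.05 in KO HFD, 8.38 to 8.54 in WT HFD, 7.82 to 8.04 in KO chow and 7.77 to 8.02 in WT chow. Of 9 stellate cell markers, 3 were lower (Lrat, Col3a1 and Col1a1) and 6 did not pass. Rgs5 stood on the other side at 0.39 ± 0.18 (limma adjusted p = 0.21). The mean of the stellate list was 8.62 to 8.83 in KO HFD, 9.01 to 9.34 in WT HFD, 8.71 to 8.88 in KO chow and 8.54 to 8.77 in WT chow. Of 6 endothelial markers, 2 were lower (Lyve1, a call lost without any 1 HFD array, with an adjusted p of up to 0.109, and Cdh5) and 4 did not pass, with means of 9.69 to 9.84 in KO HFD, 9.99 to 10.02 in WT HFD, 9.84 to 9.93 in KO chow and 9.69 to 10.09 in WT chow. Kdr, of the same list, stood on the other side at 0.34 ± 0.11 (limma adjusted p = 0.078), and it was the 1 endothelial marker called for HFD against chow in WT, as lower (-0.41 ± 0.11, 0.0446, up to 0.145 with 1 array left out). The part of these markers in the result for Pparg, which macrophages and stellate cells can also express, was not tested.

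Of 6 adipocyte markers, 0 were called by limma in any comparison. Their mean was 6.03 to 6.33 in KO HFD, 5.97 to 6.09 in WT HFD, 5.7 to 5.8 in KO chow and 5.8 to 5.85 in WT chow. Adipoq, Lep and Plin1, which define adipocytes, were within the range of the silent genes on every array. Fabp4, of the same list, did not pass for HFD minus chow. It was 1.83 ± 0.34 in KO (limma adjusted p = 0.0599) and 1.09 ± 0.34 in WT (0.0813). In KO, Lep and Retn also leaned higher (0.38 and 0.30), while Plin1, Adipoq and Ucp1 leaned lower (-0.11, -0.07 and -0.03). The mean of the list in KO HFD lay above that in KO chow on every array. Of 9 clock genes that peak opposite to Bmal1, 5 were lower in KO on HFD (Dbp, Tef, Hlf, Ciart and Usp2). The other 4 did not pass. Of 5 that peak with Bmal1, 2 were higher (Arntl and Clock) and 3 did not pass. Of all genes, 6.62% were lower and 3.89% higher. Nr1d1, of the first list, stood on the other side at 0.36 ± 0.18. Cry1 (-0.135 ± 0.133) and Nfil3 (-0.15 ± 0.20), of the second list, did so too. The call for Hlf was lost without any 1 of 3 HFD arrays (up to 0.0634) and that for Arntl without any 1 of the 6 (up to 0.105). The mean of the Bmal1-phase genes minus that of the opposite phase was 0.04, 0.23 and 0.33 in KO HFD, -0.92, -1.3 and -1.3 in WT HFD, 0.29, -0.16 and -0.16 in KO chow and 0.99, -0.46 and -0.22 in WT chow. WT HFD was thus the low group by this measure too, as it was for Ppargc1a, and the part of clock phase in these results was not tested.

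The genes whose profiles lay closest to each changed member were found over the 12 arrays among 19228 named genes, by the root mean square (RMS) difference of log2 values centred on each gene's mean. For Pparg, whose own RMS around its mean was 1.03, these were Ccl2 (0.606), a chemokine gene, Cxcl9 (0.696), another chemokine gene, and Slc44a3 (0.697). Ccl2 had 6.14, 6.36 and 6.31 in KO HFD, 7.76, 7.55 and 7.36 in WT HFD, 6.17, 5.67 and 6.46 in KO chow and 6.78, 6.31 and 6.04 in WT chow. It shared with Pparg the high WT HFD group, but its chow genotypes overlapped.

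For Ppargc1a, whose own RMS was 0.501, the closest were Scamp1 (0.213), of vesicle membranes, Egfr (0.214), the epidermal growth factor receptor gene, and Kif21a (0.214), a kinesin gene. Egfr had 12.13, 12.16 and 12.35 in KO HFD, 10.76, 10.65 and 10.9 in WT HFD, 12.12, 11.89 and 11.61 in KO chow and 11.94, 11.86 and 11.9 in WT chow. As for Ppargc1a, all 3 WT HFD mice lay below the other 9. The likeness is a description over 12 arrays that share 4 groups.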

How the data were processed

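The authors deposited 1 table of log2 signals, with 41345 probe sets in rows and 12 arrays in columns. Per the submitters' processing notes, oligo produced them, and its version, background correction and summarisation are not stated in those notes. No further scaling was applied. Symbols came from the array annotation. RefSeq (GRCm38.p6) served to look up the names in the gene lists and gave positions and promoters. Of the probe sets, 23521 carried 1 symbol, 1814 several and 16010 none. A gene with over 1 probe set (1082 of 22180) was represented by the one with the highest mean.

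All 12 arrays were fitted as 4 groups with limma 3.58.1 in R 4.3.3 (lmFit, eBayes), without a filter or a replicate block, for 6 comparisons, each with Benjamini-Hochberg adjustment over all genes at 0.05. The code was tested on simulated data. The titles number the 3 mice of a group as replicates, and the p-values measure the spread between them.

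The members and gene lists were chosen with earlier results of these data known. All members, up to 6 genes per list and comparison with the smallest p, examples from the lists, and the 3 closest profiles per changed member were named. The alternatives were a replicate block, array weights, eBayes with a trend and robust settings, median centring, quantile normalization, a filter on dim genes, the mean of all probe sets, only the arrays compared, and leaving out each array in turn.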

Additional observations from a re-analysis of the deposited data

Results flagged for a closer look

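No member met a rule for a closer look: the interaction called 0 of 9 by limma, with Ppargc1a at an unadjusted p under 0.05, and groups of 3 mice are too small for the test of a single outlying sample. The genes below are targets and coregulators whose KO minus WT difference on HFD differed from that on chow by the test of the interaction (limma adjusted p under 0.05). Their values are that difference of differences on the log2 scale, and in each case the 3 WT HFD mice enter it.

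Among the PPARα targets it was 1.96 for Fgf21, 1.82 for Cyp4a31, 1.41 for Acot1, 1.35 for Ehhadh and 1.23 for Acot2. It was 0.83 for Hadhb, 0.78 for Acaa1b, 0.53 for Plin2 and 0.48 for Hadha. The calls for Fgf21, Acot2, Hadhb and Hadha were each lost when 1 of several arrays was left out, with an adjusted p of up to 0.0625, 0.0676, 0.102 and 0.103 in that order. Among the PPARγ targets it was -2.82 for Cidea, -2.34 for Cd36, -2.06 for Plin4, -1.92 for Vldlr and -1.17 for Mogat1. Of these, the calls for Cidea (up to 0.0528) and Mogat1 (up to 0.0974) were lost without 1 of several arrays. Outside WT HFD the group means of Cidea were within the range of the silent genes. Among the coregulators it was -3.68 for Lpin1, which kept its call in every leave-out fit, and -0.45 for Hdac3, which lost it without any 1 of the 12 arrays (up to 0.122).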

How the results depend on the processing

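Of 872 alternative values of single members, 820 kept their direction and their side of the threshold (486 of 528 that left out 1 array, 334 of 344 others), and no called value changed sign. With trend and robust settings 2 members were called higher in KO on HFD and 0 lower, 0 lower for the mean of both diets, and 1 higher for the interaction. Array weights left 0 lower in KO on HFD. Only the arrays compared gave 1 member higher for HFD against chow in WT, and only genes above the median signal gave 1 higher for the interaction. The causes were not tested.

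Leaving out 1 array gave 0 to 1 members lower in KO on HFD, for the mean of both diets and for HFD against chow in WT, and 0 to 1 higher for the interaction. Over those fits the PPARα targets higher in KO on HFD numbered 7 to 11, and 7 when centred on the array median or with only the arrays compared; those lower on HFD in WT numbered 7 to 13, and those higher in the interaction 5 to 8. The PPARγ targets lower in the interaction numbered 3 to 5, and the target lower on HFD in KO 0 to 1, with 0 under the replicate block and with only the arrays compared.

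Values near 0 changed sign. Median centring gave -0.048 for Ppard and -0.037 for Rxrb in KO against WT on HFD, and quantile normalization gave 0.001 for Ppara on chow. Leave-out ranges crossed 0 in KO against WT on HFD for Ppard (-0.041 to 0.097) and Rxrb (-0.031 to 0.069). On chow they did for Ppara (-0.033 to 0.038), Ppard (-0.099 to 0.018), Rxra (-0.084 to 0.023), Rxrb (-0.006 to 0.075), Rxrg (-0.163 to 0.01), Ppargc1a (-0.007 to 0.436) and Creb3l3 (-0.052 to 0.003). They also did for Ppargc1b in the mean of both diets (-0.147 to 0.043), Rxra in HFD against chow in WT (-0.008 to 0.099), and in KO for Pparg (-0.325 to 0.79), Rxrg (-0.135 to 0.053), Ppargc1a (-0.009 to 0.435) and Ppargc1b (-0.082 to 0.287).

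The replicate block changed no call of a member: in KO against WT on HFD Ppargc1a had an adjusted p of 0.00405 and Pparg one that rounds to 0.05 and lies just under it. The deviations of same-number samples from their group means correlated at -0.064 to 0.08 over genes, so the numbers are taken not to pair them. Over all genes, calls in KO against WT on HFD numbered 2331, and 1506 to 2915 over the alternatives and leave-out fits. The same counts were 2, and 0 to 19, on chow, 1067, and 645 to 1611, for the mean of both diets, 1543, and 815 to 2213, for HFD against chow in WT, 54, and 21 to 124, in KO, and 783, and 432 to 1394, for the interaction.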
